A study of Mus musculus with 30 samples.

Results

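Antisense and sense-intronic transcripts were followed in the ovaries of adult mice that had, or had not, been given dextran sulfate sodium (DSS) before puberty. Antisense genes are transcribed from the strand opposite another gene, and sense-intronic genes lie inside an intron of a gene on the same strand. Members were chosen by 2 values of the deposited table, a gene type of antisense or sense_intronic and a mean of at least 5 normalized counts over all 30 ovaries, which kept 296 of 50600 genes. They comprised 234 of 2480 antisense genes, of which 1673 were above 0 in at least 1 ovary, and 62 of 279 sense-intronic genes, of which 214 were. Since the level chose them, the levels are given as a description. The cutoff used the mean over all ovaries and not the contrasts below. Yet 12 members had a mean under 5 in control mice and 6 in DSS mice, so these passed only through the other group. Likewise 11 members had a mean under 5 in right ovaries and 3 in left ovaries, and passed only through the other side. All of them stay in the counts of members below.

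Per the labels, the 30 libraries came from the left and right ovaries of 15 C57BL/6 females. DSS, a chemical that damages the gut epithelium and is used to induce colitis in mice, was given at 3% in the drinking water for 7 days to 7 sexually immature mice, while 8 littermates served as controls; ovaries of all mice were taken after sexual maturity, at ages not given in the sources used here. Mice are named by group and label number, as in DSS_10.4. Libraries were made by CEL-Seq, which primes on poly(A) with an oligo(dT) primer and reads transcripts near their 3' ends. Recovered reads ran from 3434761 to 8564770 in DSS ovaries (n = 14) and from 3095386 to 4807853 in control ovaries (n = 16). Values are normalized counts, and log2 differences are on the scale of log2(value + 1), which understates changes of low genes. Markers of granulosa cells, oocytes and luteal cells were present in both groups, as were oviduct markers, summing to between 386 and 34710 in DSS mice and between 238 and 21600 in control mice, and 7 ovaries held over 5000 counts of the oviduct gene Ovgp1.

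Antisense RNAs are known to act on the gene they face in several ways. Some, such as Kcnq1ot1 and Airn, are imprinted RNAs expressed from the paternal allele that keep neighbouring genes silent in cis. Tsix runs through Xist, the RNA that coats the inactive X chromosome, and represses it. Others share a start region with a developmental transcription factor, as Emx2os does with Emx2. Many sense-intronic genes are single-exon models whose reads can be hard to tell from unspliced RNA of the host gene.

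By deposited position, 217 of the 234 antisense members overlapped a protein-coding gene. The 5' ends overlapped in 96, the antisense gene lay wholly inside the coding gene in 75, the 3' ends overlapped in 63 and it spanned the whole coding gene in 18, some members counting in more than 1 arrangement. Of the 62 sense-intronic members, 60 lay inside a coding gene on its strand. Coding exons were overlapped by 150 antisense but only 5 sense-intronic members. Every annotated transcript had 1 exon in 35 antisense and 37 sense-intronic members. Chromosome 3 held 18 sense-intronic members (29.0%), against 5.42% of all tested genes and 23.7% of all sense-intronic rows, whatever their level. The strand setting used for counting is not given in the sources used here, so reads of an antisense member and of the gene it faces may not have been told apart, and the level of each overlapping member is uncertain.

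The transcripts of many members held A-rich stretches, shown here because an oligo(dT) primer can anneal to such a stretch as it does to a tail. In 1000-base pieces of the longest GENCODE M21 transcript of each gene, a window of 20 bases with at least 15 A was found in 35 of 105 pieces of sense-intronic members (33.3%) and in 140 of 433 of antisense members (32.3%). The share was 14.6% in tested coding genes and 32.7% in tested TEC genes, transcripts that still await experimental evidence. In antisense and sense-intronic genes below the cutoff it was 17.8% and 15.5%, so the rows left out by the choice on level held fewer. The following stretches come from 4 members in which the window follows the letters ACCCTGTC, and the window with the most A is in capitals; all are on GRCm38 and written on the strand of the transcript.
Kcnq1ot1, chr7:143281134-143281213, minus strand: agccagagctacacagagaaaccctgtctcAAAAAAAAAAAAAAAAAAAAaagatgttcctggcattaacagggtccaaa
Gm15965, chr16:90986140-90986219, plus strand: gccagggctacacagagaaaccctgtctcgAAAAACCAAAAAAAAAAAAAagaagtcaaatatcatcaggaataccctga
Gm15614, chr5:32507184-32507242, minus strand: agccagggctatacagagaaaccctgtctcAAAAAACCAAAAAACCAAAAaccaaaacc
Gm45570, chr8:25594454-25594508, minus strand: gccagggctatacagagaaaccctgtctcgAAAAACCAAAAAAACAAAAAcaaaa
The near-identical letters before the window are those of a repeat that occurs widely in the mouse genome. On the transcript's strand, ACCCTGTC stood in the 30 bases before 9 of 86 windows of sense-intronic members, 20 of 247 of antisense members, 78 of 849 of TEC genes and 510 of 9572 of coding genes.

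**Figure D1:**
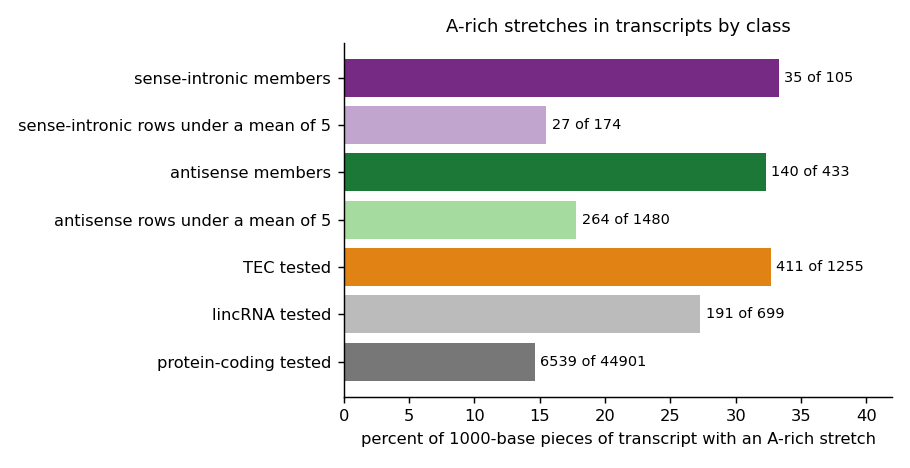
Percent of 1000-base transcript pieces (horizontal axis) that hold a window of 20 bases with at least 15 A, by gene class, with the number of pieces beside each bar. Sense-intronic members (33.3%), antisense members (32.3%) and TEC genes (32.7%) lie close together, and coding genes (14.6%) and the rows under a mean of 5 lie lower.

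For comparison, the window of Gm45792 does not follow that motif, and like those of Gm15965, Gm15614 and Gm45570 it is interrupted by other bases.
Gm45792, chr7:119627439-119627518, minus strand: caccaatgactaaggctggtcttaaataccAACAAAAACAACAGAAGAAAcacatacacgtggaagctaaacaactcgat
No such window was found in the longest transcripts of Gm29055, Gm44699, Gm42659, Gm20663 or Airn. The polyadenylation signal AATAAA stood in the last 50 bases of that transcript in 29.0% of sense-intronic members, 47.2% of antisense members and 60.7% of tested coding genes.

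Among antisense members, Kcnq1ot1 had the highest level, at a mean of 2393 over the ovaries. A530020G20Rik, whose 5' end overlaps the choline transporter-like gene Slc44a3, was at 810, and Gm15965, inside the phosphoinositide phosphatase gene Synj1, at 764. Gt(ROSA)26Sor, the locus widely used to insert transgenes, was at 405, Brip1os at 311, Gm42726, inside the ubiquitin-conjugating enzyme gene Ube2k, at 272, and RP23-228B2.3, which overlaps Sidt2, and Gm45792 both at 160. Among sense-intronic members, Gm42659, inside the actin-capping subunit gene Capza1, was at 459, B930095G15Rik, inside Farp1, at 116, Gm29055 at 91.4, Gm28229 at 77.8 and RP23-349H12.7, inside Cep85l, at 70.9. The median was 13.1 for antisense and 12.8 for sense-intronic members. At the cutoff, the antisense genes Atcayos (5.01) and B230369F24Rik (5.08) were just inside, and Gm15462 (4.97) and Dhx58os (4.98) just outside. These levels are counts of 3' tags, not values per length.

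The first comparison asked whether these transcripts differed between DSS and control mice. No member passed the threshold: limma with Benjamini-Hochberg adjustment over 14646 genes called 0 members at 0.05, as it called 0.0% of all tested genes. At an unadjusted p under 0.05 there were 29 members (9.8%), against 7.98% of all tested genes. Of these, 26 of the 296 members were higher in DSS mice, against 704 of 14646 tested genes (4.81%). On recovered reads, edgeR called 2 members, Gm29055 and Gm45792 (0.041% of tested genes were called), and DESeq2 called 4, these 2 with Kcnq1ot1 and Gm20663 (0.355% of tested genes), all higher in DSS mice. In 3 members, Gm29055, Gm45792 and Gm20663, the lowest DSS mouse lay above the highest control mouse, as it did in 0.0615% of tested genes.

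Gm29055 is a single-exon gene inside Dis3l2, the exoribonuclease that degrades uridylated RNAs (ENSMUSG00000100768.1, chromosome 1, 86774819 to 86776528, plus strand). It ranged from 90.8 to 140 in DSS mice, with a median of 106, and from 50.5 to 84.3 in control mice, with a median of 73.8, so the groups did not overlap. The means were 113 ± 19.0 (SD, n = 7) and 72.2 ± 10.7 (n = 8), a log2 difference of 0.64 (SE 0.11), which did not pass with limma (adjusted p = 0.0926), while edgeR gave an adjusted p of 0.0416 and DESeq2 8.67e-05. Its host Dis3l2 differed by 0.05 (SE 0.07), and the difference between the pair, 0.59 (SE 0.16), did not pass with limma (adjusted p = 0.119). In left ovaries alone the log2 difference was 0.83, and limma called it (adjusted p = 0.0125), while in right ovaries alone it was 0.46 and did not pass (adjusted p = 0.511).

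Gm45792 (ENSMUSG00000108884.1, chromosome 7, 119626519 to 119631058, minus strand) lies opposite Acsm1, a medium-chain acyl-CoA ligase whose row, at a mean of 0.193, was too low to test. It ranged from 157 to 223 in DSS mice (median 190) and from 118 to 148 in control mice (median 138), again without overlap. The log2 difference was 0.46 (SE 0.08), with an adjusted p of 0.0926 by limma, 0.0416 by edgeR and 0.000146 by DESeq2. For both Gm29055 and Gm45792, limma called the difference without mouse DSS_15.1 (adjusted p = 0.0285 for each) and without the ovaries over 5000 counts of Ovgp1 (0.0446 for each).

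Kcnq1ot1 (ENSMUSG00000101609.1, chromosome 7, 143212155 to 143296549, minus strand) was at 2311 to 3017 in DSS mice (median 2639) and 2047 to 2444 in control mice (median 2136). All 7 DSS mice were above the control median, and 6 lay above every control mouse. The log2 difference was 0.27 (SE 0.06), which did not pass with limma (adjusted p = 0.139) or edgeR (0.126), and DESeq2 gave 0.00362. Kcnq1, the potassium channel gene that contains it on the other strand, was at 36.2 ± 6.99 in DSS and 38.0 ± 13.42 in control mice (log2 -0.02, SE 0.18). Cdkn1c, an imprinted growth inhibitor of the same cluster, differed by 0.18 (SE 0.19, adjusted p = 0.829 by limma).

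Gm20663 (chromosome 7, 105901568 to 106093337, plus strand), whose overlapping coding gene Gm4070 was at 0 in every ovary, was lower in level. It ran from 11.8 to 24.7 in DSS mice (median 19.1) and from 3.07 to 11.7 in control mice (median 9.25), with a log2 difference of 1.02 (SE 0.23, adjusted p = 0.156 by limma). Gm44699 lies inside the actin crosslinker gene Actn4. It was at 16.4 ± 3.84 in DSS and 10.48 ± 2.45 in control mice (log2 0.60, SE 0.17, adjusted p = 0.370 by limma), and 5 of 7 DSS mice lay above all control mice.

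On the lower side, no member was called by limma, edgeR or DESeq2. 4921514A10Rik, inside Szrd1 on the other strand, was at 24.4 to 33.1 in DSS mice (median 29.9) and 28.4 to 58.0 in control mice (median 43.6). Every DSS mouse lay under the median of the controls, yet the groups overlapped (log2 -0.47, SE 0.14, adjusted p = 0.370 by limma, 0.257 by edgeR and 0.086 by DESeq2). The next by p were Gm26759, which overlaps the 3' end of the corepressor gene Irf2bp2 (log2 -0.39), K230015D01Rik, at the 5' end of the dynein gene Dync1li2 (-0.46), Gm9917, which faces the tumour suppressor genes Rassf1 and Tusc2 (-0.42), and the sense-intronic RP23-438P19.7, inside Zfp445, a zinc finger gene known for imprint maintenance (-0.42). Their adjusted p by limma ran from 0.577 to 0.641.

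**Figure D2:**
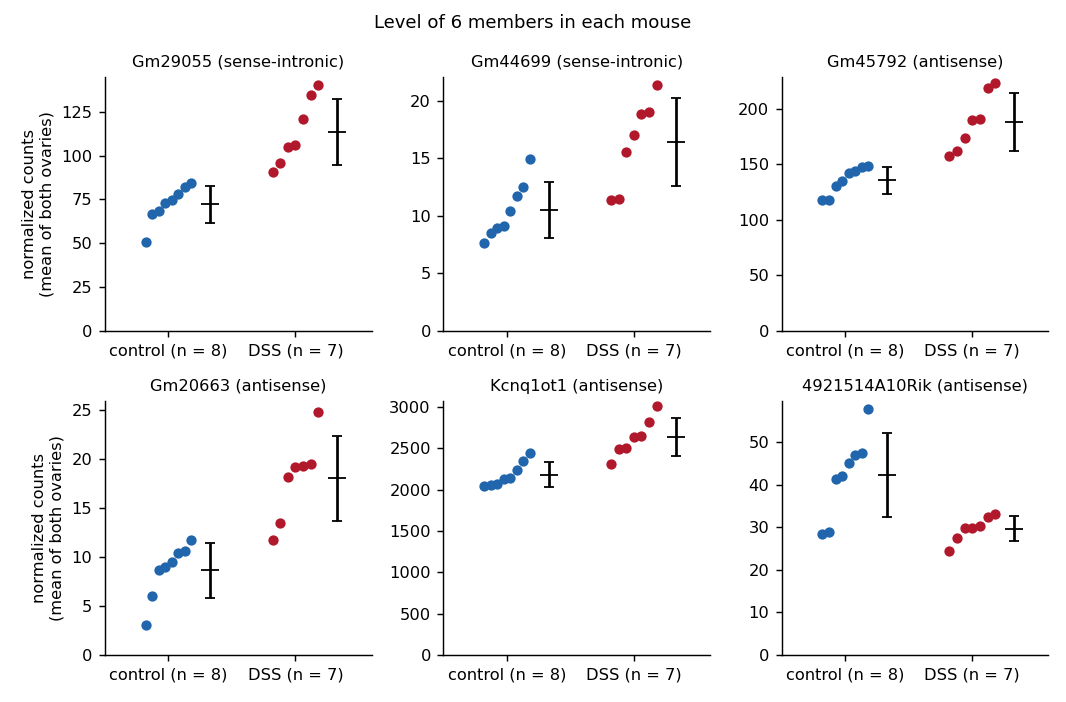
Normalized counts of 6 members, each point the mean of both ovaries of 1 mouse, sorted by value, with the group mean and SD beside the points (8 control mice, 7 DSS mice). In Gm29055, Gm45792 and Gm20663 the groups do not overlap, in Gm44699 and Kcnq1ot1 they overlap in part, and 4921514A10Rik is lower in DSS mice with overlap; none passed the limma test.

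As classes, sense-intronic members lay higher in DSS mice more often than coding genes did, although limma called none of them. Of the 62, 51 had a positive log2 difference (82.3%), with a median of 0.16, and 11 reached an unadjusted p under 0.05, all of them higher. Of the 234 antisense members, 149 were positive (63.7%), with a median of 0.06, and 15 higher and 3 lower reached an unadjusted p under 0.05. Over all 14646 tested genes 50.6% were positive, with a median of 0.00182, over 13059 coding genes 48.4%, and over 548 TEC genes 77.0% with a median of 0.17. The share was 60.2% of 367 long intergenic (lincRNA) genes, 63.1% of 179 processed transcripts and 80.0% of 25 bidirectional promoter genes. Small classes ran from 35.3% of 17 transcribed processed pseudogenes to 86.7% of 15 misc_RNA genes. The sum over sense-intronic members was 1886 ± 128 in DSS and 1733 ± 105 in control mice, and that over antisense members 10340 ± 592 and 9632 ± 442. Kcnq1ot1 alone, at a median of 2639 in DSS and 2136 in control mice, made up a large part of the antisense difference. The antisense sum therefore does not show a rise spread over its members. No class was tested, and with fewer cells of a type or less RNA per cell the class sums would move alike, which bulk ovaries cannot tell apart.

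The class shift varied with the scaling and between the fits of each side, and no class was tested for a dependence on side. Under quantile normalization 43 of 62 sense-intronic members were positive (69.4%, median 0.09), and the antisense median turned to -0.00627, with 110 of 234 positive (47.0%), while 45.0% of all tested genes were positive. In right ovaries alone the antisense median was -0.00237 (49.1% positive) and the sense-intronic median 0.13 (61.3%). In left ovaries alone they were 0.09 (61.5%) and 0.26 (77.4%). Without the ovaries over 5000 counts of Ovgp1, 51 sense-intronic and 146 antisense members were positive. The DSS difference was larger in left than in right ovaries for 40 of 62 sense-intronic and 136 of 234 antisense members. Without the mice that had such an ovary it was larger on the left for 36 and 117.

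Low coding genes leaned the same way as low members. Among genes with a mean of 5 to 10, 62.6% of 1206 coding genes, 61.1% of 90 antisense members and 81.8% of 22 sense-intronic members were positive. With a mean of 10 to 50 the shares were 54.4% of 4172, 66.4% of 113 and 86.7% of 30, and with at least 50 they were 43.0% of 7681, 61.3% of 31 and 70.0% of 10. Coding genes with an A-rich window were positive in 2904 of 4919 cases and those without in 3417 of 8136. Antisense members had 70.8% of 106 and 58.3% of 127, and sense-intronic members 85.0% of 40 and 77.3% of 22, but there the median was larger without a window (0.29) than with one (0.14).

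Several other measures moved in the same direction between the groups. TEC rows summed to 21990 ± 2427 in DSS and 18100 ± 1773 in control mice. Rows of 1764 odorant, vomeronasal and trace amine receptors, known from sensory neurons, summed to 2240 ± 239 and 1792 ± 119. The ribosomal RNA tags mt-Rnr2 and Gm42418 were at 178700 ± 38670 against 119600 ± 26140 and at 15550 ± 5403 against 7744 ± 1796. All 9 oviduct, all 8 adipose and all 4 smooth muscle markers had a higher mean in DSS mice, as had 6 of 7 immune markers. The sums of the first 3 lists spread widely over mice. Oviduct markers summed to 9070 ± 12450 in DSS and 4948 ± 7493 in control mice. Adipose markers summed to 1964 ± 2015 and 994 ± 1204, and smooth muscle markers to 5688 ± 3665 and 4109 ± 1861. Every marker of these lists was above 0 in some mouse. In the other lists few or no markers had a higher mean in DSS mice. These were 0 of 8 keratinocyte, 0 of 5 oocyte, 1 of 4 granulosa, 1 of 3 luteal and 1 of 3 endothelium markers. The median library held 4582014 reads in DSS and 4240590 in control ovaries. The part of these measures in the shift of the members was not tested.

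**Figure D3:**
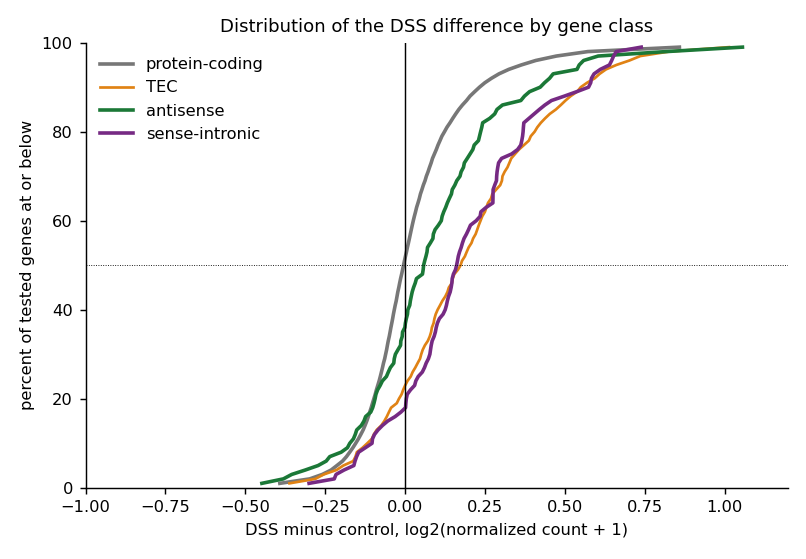
Percent of tested genes (vertical axis) with a log2 difference between DSS and control mice at or below the value on the horizontal axis, for 4 gene classes. The sense-intronic line runs beside the TEC line, crossing 50% near 0.16 and 0.17, the antisense line crosses at 0.06, and the coding line passes close to 0.

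The coding gene at the same place gave a second reading of the DSS contrast. Of 942 overlapping pairs of a non-coding and a coding gene with both above the cutoff, 279 held a member, made of 245 members. Limma on the per-mouse difference between the 2 genes called 0 of the 279 pairs, with 0.212% of all 942 pairs called, and at an unadjusted p under 0.05 there were 23 pairs in which the member lay higher and 4 in which it lay lower. Over all 942 pairs the non-coding gene lay higher in 100 and lower in 26, the latter 2.76% of the 942. Taking both directions, 9.68% of the member pairs were past that p, a smaller share than over all 942 pairs. The members lay above the coding gene in 43 of 60 sense-intronic pairs (median 0.14) and 138 of 219 antisense pairs (median 0.09). The coding genes themselves had medians of 0.01 and -0.02, beside 0.12 for the difference over all 942 pairs. The pairs share members and coding genes, so they are not independent.

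The 3 pairs with the smallest p did not pass. Gm15614 lies opposite the 5' part of Yes1, a Src family kinase. It differed by -0.14 between DSS and control mice while Yes1 differed by 0.44, giving -0.58 for the pair (SE 0.14, adjusted p = 0.107 by limma). For Gm44699 relative to Actn4 the difference was 0.63 (SE 0.16, adjusted p = 0.108), since Actn4 itself was at -0.04. Gm15991, inside Psd3, an exchange factor for the GTPase Arf6, was at 9.07 ± 1.52 in DSS and 4.73 ± 2.10 in control mice. Relative to Psd3 it differed by 0.90 (SE 0.24, adjusted p = 0.108). Its control mean lay under 5, so it passed the cutoff only through the DSS mice. Its DSS results are therefore given as a description. With the 7 ovaries rich in Ovgp1 left out, limma called the pair of Gm44699 (0.94, adjusted p = 0.0185), beside 7 of all 942 pairs. The Gm15991 pair then differed by 1.14, also given as a description.

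**Figure D4:**
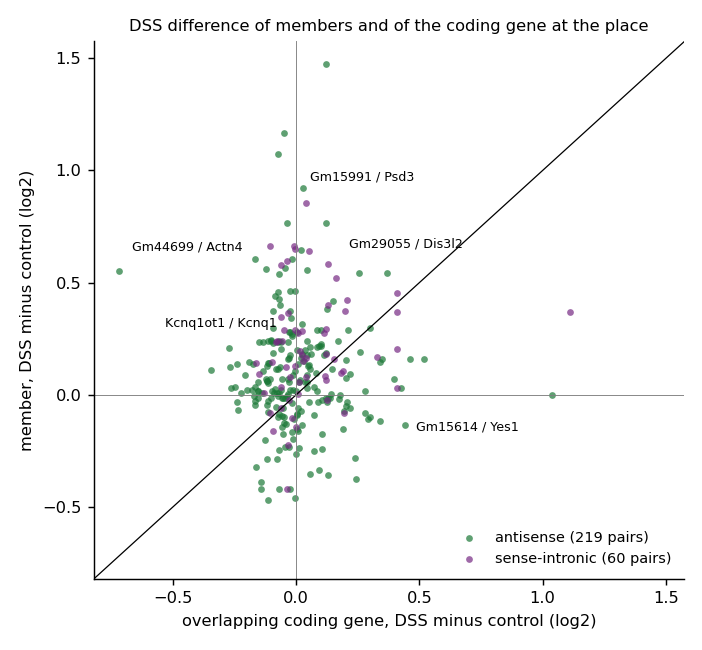
Log2 difference between DSS and control mice of each member (vertical axis) against that of the coding gene it overlaps (horizontal axis), for 219 antisense and 60 sense-intronic pairs, with the line of equal differences. Most coding genes lie near 0 while members spread further on both sides, and Gm29055, Gm44699 and Gm15991 lie above the line at 0.64, 0.60 and 0.92.

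Left and right ovaries of the same mouse were compared next, with the mouse as a block. Limma called 9 of 296 members (3.04%), against 10.2% of all tested genes. Of these, 6 were higher in left ovaries and 3 in right ovaries, against 4.56% and 5.6% of all tested genes. edgeR called 9 members (9.82% of tested genes) and DESeq2 6 (8.02%). The share was larger at higher levels, for members and for coding genes alike. With a mean of at least 50, limma called 6 of 41 members (14.6%), beside 1231 of 7681 coding genes. With a mean of 10 to 50 it called 2 of 143 members, beside 145 of 4172 coding genes. With a mean of 5 to 10 it called 1 of 112 members, beside 31 of 1206 coding genes. In the labels left ovaries carry odd and right ovaries even library numbers, so side and library order cannot be told apart, and all 8 keratinocyte markers were higher in left ovaries, at a summed mean of 1831 against 249.6.

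Tsix was higher in left ovaries in 14 of 15 mice. It ranged from 44.7 to 107 in left ovaries (median 64.2) and from 21.9 to 62.0 in right ovaries (median 43.4), so the ranges overlapped, with a log2 difference of 0.66 (SE 0.13, adjusted p = 0.00294 by limma). Xist, which it overlaps on the other strand and which is no coding gene, was at 831 ± 75.4 and 755 ± 83.03 (log2 0.14, SE 0.04) and missed the threshold (adjusted p = 0.0517 by limma). In DSS mice alone the Tsix difference was 0.85 (adjusted p = 0.0494), and in control mice alone it did not pass (adjusted p = 0.135). Compared directly, the left minus right difference of Tsix was 0.36 larger in DSS than in control mice (SE 0.26), which did not pass (adjusted p = 0.713 by limma).

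Brip1os had the smallest p and was higher in right ovaries in 14 of 15 mice. It was at 249.2 to 331 in left ovaries (median 267) and 300.2 to 435 in right ovaries (median 345.4), with a log2 difference of -0.34 (SE 0.05, adjusted p = 7.95e-05 by limma). Its span covers Ints2, a subunit of the Integrator complex, and reaches into Med13, a subunit of the Mediator kinase module (chromosome 11, 86201370 to 86304443, plus strand). Ints2 differed by -0.03 and Med13 by 0.07 between the sides. Relative to these genes, limma called the pair of Brip1os with Med13, given below, and not the pair with Ints2.

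Of the other called members, Gm45507 had the widest difference. It lies inside Bnip3, a receptor of mitophagy, and had 14.2 ± 6.13 counts on the left and 5.99 ± 3.12 on the right (log2 1.16, SE 0.25, adjusted p = 0.00487 by limma), higher on the left in 13 of 15 mice. RP24-325N9.5, the only sense-intronic member called, lies inside the AMPK-related kinase gene Snrk and was at 10.2 ± 4.50 and 5.96 ± 3.39 (log2 0.74, adjusted p = 0.0148). Gm15614 was at 86.2 ± 11.11 and 67.2 ± 11.9 (log2 0.36, adjusted p = 0.00464), higher on the left in 14 of 15 mice, and the phosphatase subunit gene Ppp1cb, whose 3' end it overlaps, was also higher on the left (log2 0.19, adjusted p = 0.0158). Gt(ROSA)26Sor, whose 3' end meets that of the tRNA methyltransferase gene Thumpd3, was at 435 ± 82.98 and 374 ± 79.9 (log2 0.22, adjusted p = 0.00811), and Thumpd3 differed by -0.03. 2010007H06Rik was at 44.3 ± 11.7 and 35.2 ± 8.23 (log2 0.31, adjusted p = 0.0389).

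Higher in right ovaries were 1700008J07Rik and Gm16287. 1700008J07Rik, at the 5' end of the chromatin remodeller gene Srcap, had 53.4 ± 10.9 counts on the left and 72.0 ± 13.3 on the right (log2 -0.43, adjusted p = 0.0105 by limma), and Srcap itself was also higher in right ovaries (log2 -0.41, adjusted p = 0.0493 by limma). Gm16287, which overlaps no coding gene of the table, was at 92.0 ± 23.4 and 121 ± 28.0 (log2 -0.40, adjusted p = 0.0415 by limma). It was not called by edgeR (adjusted p = 0.0551). With the ovaries rich in Ovgp1 left out, 4 of the 9 were called: Brip1os, Tsix, Gm45507 and Gt(ROSA)26Sor.

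**Figure D5:**
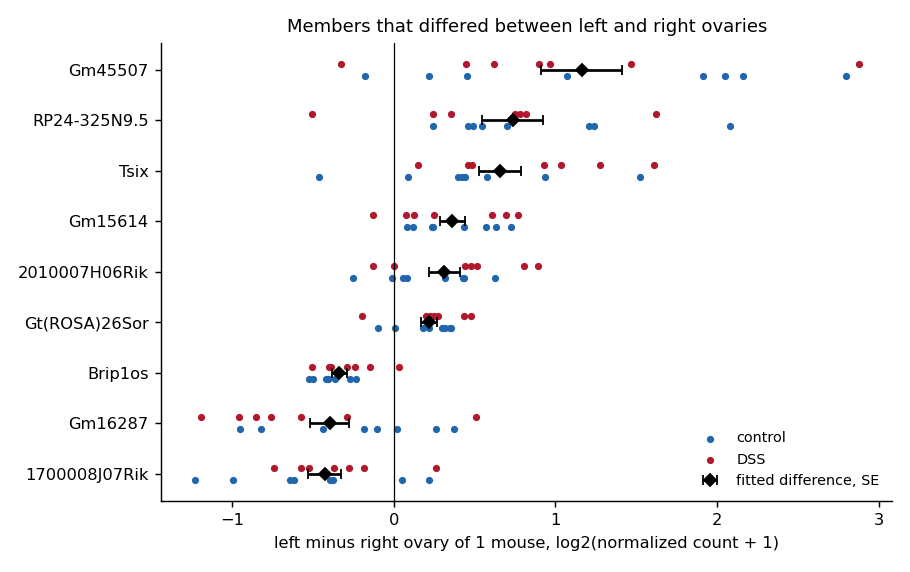
Left minus right log2 difference of each mouse (8 control and 7 DSS mice, points) for the 9 members called by limma, with the fitted difference and its SE (diamonds). The points of Brip1os and Tsix lie on 1 side of 0 in 14 of 15 mice each, and those of Gm16287 in 11.

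Relative to the coding gene at the place, limma called 6 of 279 member pairs between left and right ovaries, with 3.82% of all 942 pairs called. In 3 of them mainly the member differed between the sides: Gm45507 against Bnip3 (1.11, SE 0.22, adjusted p = 0.00595), RP24-325N9.5 against Snrk (0.73, SE 0.19, adjusted p = 0.0291) and Brip1os against Med13 (-0.41, SE 0.09, adjusted p = 0.0159), where the coding genes differed by 0.05, 0.01 and 0.07. In another pair, 4732440D04Rik against Rb1cc1, a scaffold of autophagy initiation, the difference was 0.76 (SE 0.13, adjusted p = 0.00224). Here Rb1cc1 was lower in left ovaries (log2 -0.46, adjusted p = 4.03e-05 by limma) and the antisense gene differed by 0.30 the other way (adjusted p = 0.277).

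Dhrs13os against Phf12, a PHD finger protein of a Sin3 corepressor complex, differed by 1.01 (SE 0.23, adjusted p = 0.0156 by limma), with Dhrs13os at 0.67 and Phf12 at -0.34. Emx2os against Emx2, a homeodomain factor of urogenital development, differed by 0.69 (SE 0.18, adjusted p = 0.0291), with Emx2os at 14.4 ± 11.5 in left and 9.01 ± 3.87 in right ovaries and the coding gene at -0.22. The SD of Emx2os in left ovaries rests on mouse DSS_11.2, whose left ovary was at 52.2, the next ovary being at 20.6. With a pseudocount of 5 in place of 1, limma called 14 of the 279 pairs, these 6 among them. Over all 942 pairs it called 37 with the non-coding gene relatively higher in left ovaries and 20 with it relatively lower.

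A further test asked whether the DSS difference itself was larger on one side, from the gap between the ovaries of each mouse. Limma called 0 members, as 0.0% of all tested genes, and at an unadjusted p under 0.05 there were 16 members with a larger and 7 with a smaller difference in left ovaries. Together these were 7.77% of the members, beside 8.52% of all tested genes. The smallest p belonged to Gm26670, which overlaps the 3' end of Rd3, at 18.3 ± 3.30 in DSS left and 11.5 ± 2.50 in DSS right ovaries against 11.35 ± 4.61 and 15.6 ± 2.36 in control mice (log2 1.14, SE 0.26, adjusted p = 0.533 by limma). Gm3364, a sense-intronic member inside Ldb2, gave 1.16 (SE 0.28) and Gm15564, opposite the importin gene Kpna1, -2.40 (SE 0.65), with the same adjusted p. Gm15564 ran from 0 to 50.5 over the ovaries, and 1 mouse in each group, control_10.5 and DSS_16.3, held its highest values.

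Over the 15 mice, members followed the coding gene at the same place only weakly. After removal of the group means, the median Pearson r was 0.07 over the 279 pairs, positive in 166, beside 0.10 over all 942 pairs and 0.000496 between the same members and all tested coding genes. Within-group permutation called 2 member pairs by Pearson's r, with 1.06% of all pairs called, and 0 by Spearman's rho after adjustment over the 942 pairs.

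The 2 called pairs join an antisense gene to a coding gene whose exons it overlaps, so on an unknown strand setting they may share reads. Gm10138 and Ivns1abp, a Kelch protein, overlap by 755 bases at their 5' ends, 279 of them exonic, with r = 0.875 (permutation p = 0.00011, adjusted 0.0173) and rho = 0.789 (permutation p = 0.00148, adjusted 0.166). Without the 2 mice farthest from the median of Ivns1abp r was 0.834, and it was 0.674 in left and 0.787 in right ovaries. Hoxb3os and the homeobox gene Hoxb3 share 2250 exonic bases, with r = 0.902 (permutation p = 0.00015, adjusted 0.0202) and rho = 0.836 (permutation p = 0.00088, adjusted 0.118). Without the 2 mice farthest from the Hoxb3 median r was 0.766. The highest Hoxb3os value, 45.8, came from the left ovary of DSS_11.2, which is among those over 5000 counts of Ovgp1, and without such ovaries r was 0.716 and neither pair passed.

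A list of 38 non-coding RNAs with described roles held 10 members, and none of these was called between DSS and control mice by limma (0.0% of tested genes). Besides Kcnq1ot1, Tsix was at 60.2 ± 10.61 in DSS and 49.6 ± 5.33 in control mice (log2 0.26, adjusted p = 0.565 by limma). Dnm3os, the precursor of a microRNA cluster inside Dnm3, was at 87.6 ± 15.7 and 87.9 ± 23.7 (log2 0.01, 95% interval -0.27 to 0.30). Hoxd3os1, which faces genes of the Hoxd cluster, was at 49.8 ± 11.5 and 45.8 ± 13.19, and Tbx3os1, opposite the T-box factor Tbx3, at 31.7 ± 8.17 and 29.7 ± 7.93. Tbx3os1 just missed the threshold between left and right ovaries (34.9 ± 10.33 against 26.4 ± 9.04, log2 0.41, adjusted p = 0.0505 by limma), where Tbx3 itself was higher in left ovaries (log2 0.24, adjusted p = 0.0324).

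Wt1os, whose span ends 19 bases before the start of Wt1, the granulosa and surface epithelium factor, was at 20.4 ± 4.79 in DSS and 19.8 ± 2.95 in control mice (log2 0.03, 95% interval -0.25 to 0.30), and Wt1 at 3682 ± 487 and 3475 ± 350. Zeb2os, inside the zinc finger factor gene Zeb2, was at 17.9 ± 3.54 and 19.9 ± 2.06 (log2 -0.16). Airn, the imprinted RNA that faces the growth factor receptor gene Igf2r, was at 19.5 ± 9.31 and 16.85 ± 3.03 (log2 0.12), and Igf2r at 191 ± 28.2 and 174 ± 36.7. Emx2os was at 14.7 ± 8.48 and 9.15 ± 3.14 (log2 0.55, adjusted p = 0.648 by limma) and Hoxb3os at 11.8 ± 7.43 and 10.8 ± 4.50. None of 50 ovary genes on a second list, among them Foxl2, Amh, Gdf9 and Star, was overlapped by a member in the deposited positions.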

How the data were processed

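Ovary transcripts of 30 libraries were measured by CEL-Seq; per the labels' protocols, RNA was extracted with TRIzol, cleaned on a column and barcoded with a pool of 3 primers per sample. The submitters' processing notes name TopHat, HTSeq, DESeq2 and the build GRCm38.p5; tool versions and the strand setting are not given in the sources used here. The deposited values are a signal scaled per library, that is read counts divided by the authors by a size factor per library. Whole reads were recovered from each library's step (99.9% to 100% of values above 0 came out whole within 0.0051) and summed to 3095386 to 8564770 per library, which sets the counting error of low members.

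Overlaps used the deposited positions; 2 of the 279 pairs do not overlap in GENCODE M21. Limma 3.58.1 in R 4.3.3 (two-sided, with a mean-variance trend and Benjamini-Hochberg adjustment at 0.05) was run on log2(value + 1) of all 14646 genes with a mean of at least 5, on the mean of both ovaries per mouse for DSS against control (7 against 8 mice), per ovary, blocked by mouse, for left against right, and on pairs as the difference of their log2 values. Both ovaries come from the same animal by label; their deviations from the group means correlated at a median r of 0.181 (-0.273 to 0.372). Co-variation used 100000 within-group permutations, adjusted over 942 pairs. edgeR 4.0.16 and DESeq2 1.42.0 on recovered reads, other scalings, pseudocounts, filters and left-out mice were alternatives. Littermates are separate animals, but litters are not given.

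On simulated data, limma recovered 54% of genes changed 1.5-fold and 80% changed 2-fold for DSS against control, 58% and 86% for left against right, and 44% changed 2-fold for the difference between sides, each among 14646 genes. It recovered 80.4% of pairs changed 2-fold among 942, and the permutation test 100% of 50 pairs made with a correlation of 0.95.

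The members and lists were chosen with earlier results of these data known. Named were members past the threshold (up to 10 per direction for DSS, 8 for side and 6 for pairs, otherwise the 5 or 3 with the smallest p), the 8 antisense and 5 sense-intronic members of highest mean, the listed RNAs, the genes at the cutoff and the coding gene at each place. Promoter sequences were not used, since the table covers under 80% of the members.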

Additional observations from a re-analysis of the deposited data

Results flagged for a closer look

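In the named members, the highest or lowest mouse of the 7 DSS or 8 control mice was compared with its group by the ratio of its gap to the whole range, in 84 groups of 42 members. The ratio passed the 95% critical value in 7 groups, where about 1 in 20 groups would pass by sampling alone. Mouse DSS_11.2 stood apart in 3 antisense members, Emx2os (32.4, the next DSS mouse at 15.5), Airn (39.5, next 19.3) and Hoxb3os (28.1, next 12.96). Its left ovary is among those over 5000 counts of Ovgp1 and held the highest value of each of these genes over the 30 ovaries. Gm15564 had 1 high mouse in each group, DSS_16.3 at 33.7 (next 7.41) and control_10.5 at 36.2 (next 11.02). Hoxd3os1 was high in DSS_15.1 (72.8, next 50.5), and Gm3364 was low in DSS_13.2 (10.55, next 15.6).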

How the results depend on the processing

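Members called between DSS and control mice, 0 with limma, numbered 4 by DESeq2, 2 by edgeR, 1 in left ovaries alone, 2 without the ovaries over 5000 counts of Ovgp1, and 0 to 2 when 1 mouse was left out (2 without DSS_15.1). Those called between left and right, 9, numbered 8 to 13 when 1 mouse was left out, 4 without the Ovgp1-rich ovaries, 1 in DSS mice alone and 2 in control mice alone; with no replicate block, thus without the pairing of ovaries, 11 were called and Gt(ROSA)26Sor and 2010007H06Rik were not (adjusted p = 0.196 and 0.114). Pair calls for DSS, 0, numbered 2 without the Ovgp1-rich ovaries, beside 7 of all 942 pairs. Gm15991, which passed the cutoff only through the DSS mice, is among these 2. With 1 mouse left out, pair calls for DSS numbered 0 to 2 (2 without control_10.5). Pair calls for side, 6, numbered 14 with a pseudocount of 5, beside 37 higher and 20 lower in left ovaries of all 942 pairs. Without the block, pair calls for side numbered 6. There the pairs of RP24-325N9.5 (adjusted p = 0.0879 by limma) and Emx2os (0.0939) were lost and those of A530040E14Rik and Gm15658 gained. The 2 co-variation calls fell to 1 in left ovaries, 0 in right ovaries, 0 without the Ovgp1-rich ovaries and 0 without the 2 mice farthest from the median. The sense-intronic median of the DSS difference, 0.161, was 0.259 in left ovaries alone and 0.130 to 0.196 with 1 mouse left out; the antisense median, 0.0581, turned to -0.00627 under quantile normalization and -0.00237 in right ovaries and was 0.0423 to 0.0735 with 1 mouse left out. The difference between sides had 0 calls in both alternatives. The cause of these changes was not tested, beyond fewer samples in the left-out and 1-sided fits. The alternatives were run over all genes and pairs that entered each fit. Results of single members were followed through every alternative only for the 10 DSS results of smallest p and the 9 side and 6 pair calls. None of these changed direction. Among the side calls, Gm16287 was called in 13 of 27 alternatives and 2010007H06Rik in 12 of 26, beside 26 of 27 for Tsix and for Brip1os. The other named members were not followed in this way. The depth limits low members most, and recovery at their level was not simulated separately.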
